A study of Mus musculus with 72 samples.

Results

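The comparison described is that of receptor without ligand, 1014-Grpr against 1014-Ctrl cells under mock treatment, which takes 6 of the 72 RNA-seq libraries of the series, 3 per group, chosen by their labels alone. Line 1014 is a melanoma line from a female mouse that carries the Tyr::NRASQ61K/° transgene, an oncogenic NRAS driven by the pigment cell promoter of tyrosinase. 1014-Grpr cells were given CMV::Grpr/tGFP and 1014-Ctrl cells CMV::tGFP, so that both carry a green fluorescent protein and only the former an added murine Grpr under a viral promoter. Serum was lowered to 0.5% for 18 h before mock treatment, 4 h of 0.1% DMSO with no GRP. Each line was made by transfection and geneticin selection, and the sources used here do not say whether it is a clone or a pool. The labels name 1 line per group, so the 3 libraries of a group were taken as libraries of 1 line. The p-values measure the spread between such libraries only, and effects of the receptor and of the derivation of the lines cannot be told apart. One library went against its label and was left out: that labelled 1014-Ctrl mock replicate 2, for which values are given below. The fit thus held 5 libraries, 3 of 1014-Grpr and 2 of 1014-Ctrl.

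GRPR is the G-protein-coupled receptor of gastrin-releasing peptide (GRP), a member of the bombesin peptide family. Once bound by its ligand it couples mainly to Gq and G11, which act through phospholipase C, calcium and protein kinase C, and ERK signalling, immediate early genes and YAP/TAZ targets can follow. The identity of pigment cells, from which melanoma arises, rests on Mitf, Sox10 and the genes for melanin synthesis. The question of the comparison is which transcripts differ when the receptor is present but has been given no ligand.

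Grpr (ENSMUSG00000031364, chromosome X of GRCm38 from 163513904 to 163549677) was counted at 126, 107 and 141 CPM (counts scaled to library size, TMM normalized) in 1014-Grpr mock replicates 1 to 3, and at 0 in 1014-Ctrl mock replicates 1 and 3. The groups were fully apart, and with a floor of 3 counts per control library the mean of 125 ± 16.6 CPM (SD, n = 3) was at least 1107-fold higher than in 1014-Ctrl. Reads of the added copy and of the cells' own gene are counted together, so the value does not tell them apart. The level lay below that of lines that express Grpr by themselves, which under mock treatment had 273 to 275 CPM (1057, n = 3) and 786 to 1283 CPM (1064, n = 3). CPM are not scaled for transcript length, and transcripts of the added copy may differ in length from those of the cells' own gene. Across treatments the line had 139 to 180 CPM in the 3 libraries given the antagonist RC, 399 to 620 CPM in those given GRP and 186 to 264 CPM in those given both.

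Library totals, rounded, were 21502000 to 31789500 counts in 1014-Grpr mock and 25367700 and 25853200 counts in the 2 control libraries of the fit. The library labelled 1014-Ctrl mock replicate 2 had 48.1 CPM of Grpr and 64.2 CPM of Ddx3y, a Y-linked gene at 0 in the other 23 libraries of line 1014. Genes above 10 CPM in 1014-Ctrl mock and below 0.2 CPM in 1181-Ctrl mock stood at a median of 32.0% of their 1014-Ctrl level in it, against 87.2% to 104% in the other 1014 libraries. Genes of the opposite kind stood at 59.5% of their 1181-Ctrl level, against at most 0.0623% in the other 1014 libraries. Pigment cell identity was present in both groups: Dct, an enzyme of melanin synthesis, had 36103 to 38300 TPM (an abundance scaled for transcript length and depth) in 1014-Grpr and 34744 to 35217 TPM in 1014-Ctrl, and Sox10 had 1426 to 1496 and 1557 to 1578 TPM.

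Of 13566 genes tested, 18 were called higher (0.133%) and 26 lower (0.192%) in 1014-Grpr, at an adjusted p under 0.05 (edgeR quasi-likelihood test, Benjamini-Hochberg) and an absolute log2 fold change (log2FC, 1014-Grpr over 1014-Ctrl) above 1. The largest changes were in genes near or at 0 in one group. In all 44 genes every 1014-Grpr library lay on one side of both control libraries, a separation seen in 27.5% of all tested genes with 5 libraries. The genes were called from these same libraries, so their separation largely follows from the calls and adds nothing to them. With 1014-Ctrl mock replicate 2 kept in the fit, 1 gene was called higher, Grpr, and 0 lower. Leaving out single libraries gave 6 to 26 higher and 8 to 29 lower genes, lowest without 1014-Ctrl replicate 1 (6 higher) and without 1014-Grpr replicate 2 (8 lower). The 11 genes called in every one of these fits were Grpr, Slc13a4, Moxd2, Prss58, Olfr456 and Gm378 (higher) and Gm13861, Ppp1r16b, Ugt8a, Isyna1 and Pianp (lower). In simulated libraries of this size, 89% of 100 genes changed by 1.5 and 95% of 100 genes changed by 3 on the log2 scale were recovered. The simulated counts were drawn independently for each library. More genes were changed there than the 51 that passed the adjusted p in the data, which makes that threshold easier to pass. The shares therefore do not apply as they stand to the lists without called genes below.

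**Figure D1:**
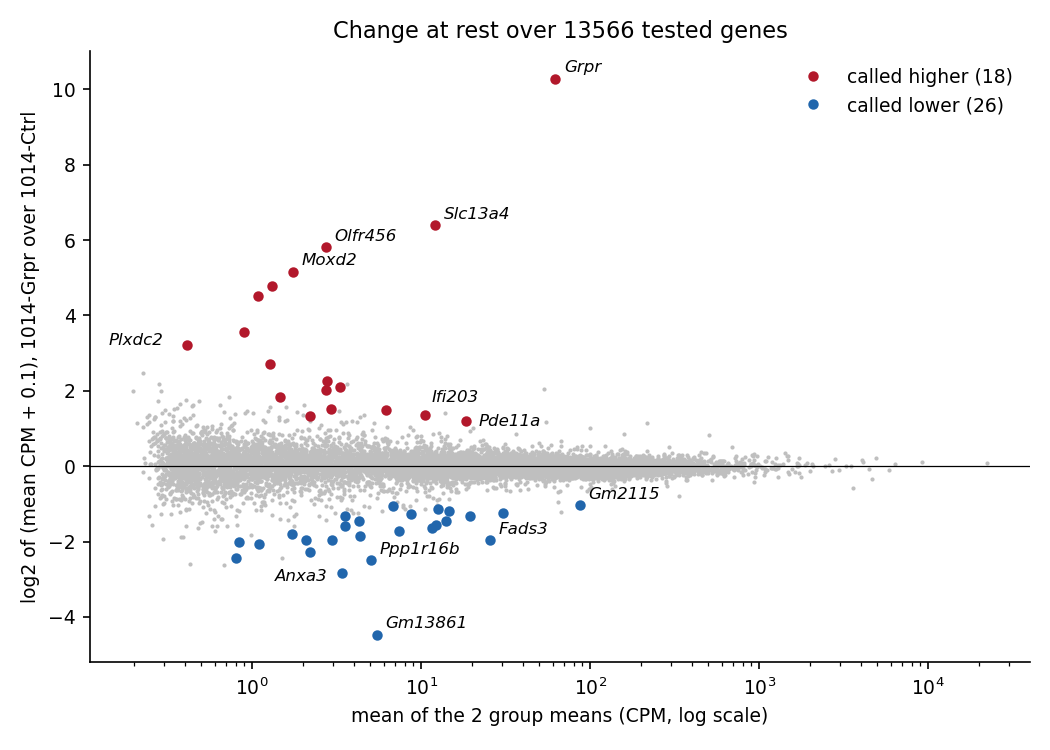
Each point is 1 of the 13566 tested genes; the horizontal axis is the mean of the 2 group means in CPM (log scale) and the vertical axis the log2 ratio of mean CPM, with 0.1 CPM added to each mean, 1014-Grpr over 1014-Ctrl. Red points are the 18 genes called higher and blue points the 26 called lower. Grpr stands alone at the top, and Slc13a4 is the next highest red point.

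After Grpr, the clearest rise was that of Slc13a4, a sodium-coupled sulfate transporter (ENSMUSG00000029843). It had 25, 26.3 and 20.8 CPM in 1014-Grpr and 0.228 and 0.148 CPM in 1014-Ctrl. The log2FC was 6.97 ± 0.25 (SE), with an adjusted p of 1.39e-05 by edgeR. Moxd2, related to the copper monooxygenases, had 3.04, 3.31 and 4.10 CPM and was at 0 in both control libraries, so that it was at least 30.9-fold higher. Prss58, a trypsin-like serine protease, had 2.20, 1.96 and 2.38 CPM against 0 and 0, at least 19.3-fold. Olfr456, an olfactory receptor, had 5.91, 3.55 and 7.01 CPM against 0 and 0, at least 48.8-fold, though reads of olfactory receptors can be shared with near-identical family members. These 3 genes were silent at this depth in the controls and detected in every 1014-Grpr library. Gm378 on chromosome X, annotated as a processed pseudogene whose reads may be shared with its parent gene, was likewise at 0 in both controls and had 2.53, 2.83 and 2.51 CPM, and Plxdc2, a transmembrane protein with a plexin-like domain, had 1.01, 0.632 and 0.838 CPM against 0 and 0.

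The other higher genes had a basal level in the controls. Grm8, a metabotropic glutamate receptor, rose from a mean of 0.263 to 2.28 CPM (log2FC 3.11 ± 0.41, adjusted p = 0.0278 by edgeR). Mgam, an intestinal maltase-glucoamylase, rose from 0.899 to 4.66 CPM. Tfap2b, a transcription factor of the neural crest, had 3.99, 4.78 and 7.59 CPM against 1.06 and 1.33 CPM, a log2FC of 2.17. Dnajc15, a mitochondrial co-chaperone, rose 4.39-fold, Erfe, the hormone erythroferrone that lowers hepcidin, 4.05-fold, and the zinc finger gene Zfp709 2.99-fold. Pde11a, a phosphodiesterase that degrades cAMP and cGMP, was the most abundant of the higher genes after Grpr, with 23.8, 22.6 and 30.2 CPM against 11.1 and 11.2 CPM. Ifi203 and Mndal, neighbours on chromosome 1 from the interferon-inducible p200 family, rose 2.60-fold and 2.86-fold, and reads may be shared between members of that family.

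**Figure D2:**
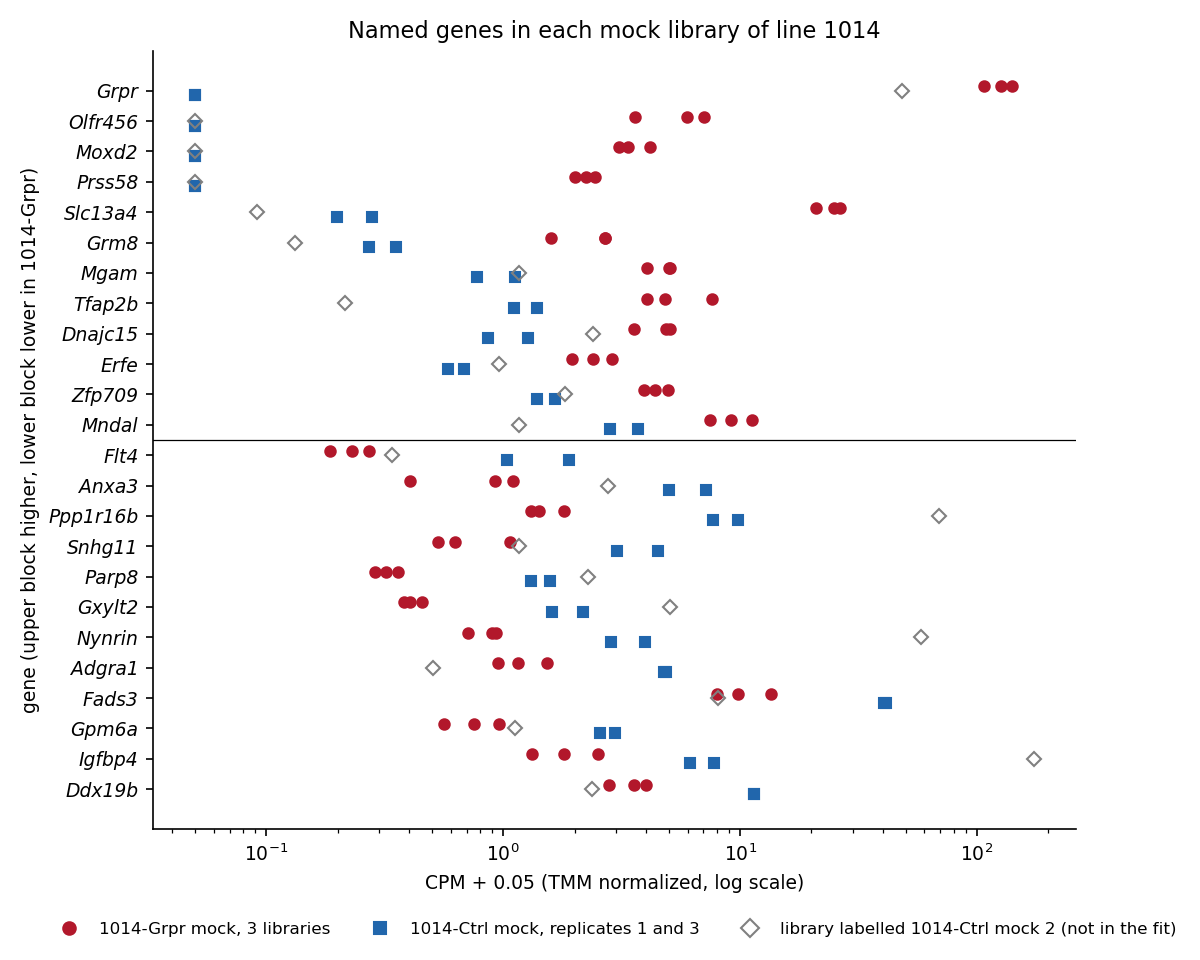
CPM in each mock library (horizontal, log scale, 0.05 CPM added) of the 12 higher and 12 lower genes named by rule; red circles are the 3 1014-Grpr libraries, blue squares 1014-Ctrl replicates 1 and 3, and open diamonds the library labelled 1014-Ctrl replicate 2, which was not in the fit. Red and blue never overlap for these genes because the rule took only genes without overlap. The diamond lies far from the squares for Grpr (48.1 CPM), Igfbp4 (174 CPM), Ppp1r16b (68.8 CPM) and Nynrin (58.2 CPM).

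Among the lower genes the largest fall was that of Gm13861, a lincRNA of chromosome 6, with 0.608, 0.271 and 0.265 CPM in 1014-Grpr and 12.5 and 8.56 CPM in 1014-Ctrl (log2FC -4.75 ± 0.33, adjusted p = 0.00191 by edgeR). Ppp1r16b, a regulatory subunit that targets protein phosphatase 1 to the membrane, had 1.76, 1.26 and 1.37 CPM against 9.73 and 7.63 CPM (log2FC -2.56 ± 0.21, adjusted p = 0.00387 by edgeR). Fads3, a fatty acid desaturase family member, had 13.4, 7.94 and 9.75 CPM against 41.2 and 40.4 CPM. All 3 1014-Grpr libraries lay below both controls, though they differed among themselves more than the controls did.

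The other lower genes named by rule act in different places in the cell. Flt4, the receptor of VEGF-C, had a mean of 0.179 CPM against 1.42 CPM, Adgra1, an adhesion G-protein-coupled receptor, 1.16 against 4.77 CPM, and Gpm6a, a neuronal membrane glycoprotein, 0.710 against 2.72 CPM. Anxa3, a calcium-dependent phospholipid-binding protein, fell from 6.03 to 0.758 CPM. Igfbp4, which binds insulin-like growth factors, fell from 6.91 to 1.83 CPM. Gxylt2, a xylosyltransferase that modifies Notch, fell from 1.84 to 0.363 CPM, and Parp8, of the ADP-ribosyltransferase family, from 1.39 to 0.272 CPM. Ddx19b, an RNA helicase of mRNA export, had 3.95, 3.52 and 2.73 CPM against 11.4 and 11.5 CPM. Snhg11 and Nynrin fell 5.37-fold and 4.23-fold. Nynrin shares 56.5% of its exon length with a gene on the other strand, and whether the counting used strand is not given in the sources used here, so its reads cannot be assigned with certainty.

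The remaining lower genes had log2FC between -1.65 and -1.03. Ugt8a, which makes galactosylceramide, had 6.42, 5.08 and 5.38 CPM against 18.5 and 16.9 CPM, and Isyna1, the inositol-3-phosphate synthase that begins inositol synthesis, had 6.66, 6.62 and 5.29 CPM against 18.6 and 18.1 CPM. Uchl1, a neuronal deubiquitinase, Kcna2, a voltage-gated potassium channel, Pianp, Prrt1, Farp1, Lrch2 and the transcription factor Glis3 fell 2.57-, 2.43-, 2.51-, 2.80-, 2.35-, 3.11- and 2.21-fold. The protocadherin Pcdhgb6 fell 2.75-fold, but 45.2% of its exon length is shared with other genes of the same strand. Gm2115, annotated as protein coding with no role given here, was the most abundant of the lower genes, with 59.6, 59.6 and 53 CPM against 108 and 127 CPM. The genes of this paragraph, Gm13861, Gm378, Plxdc2, Pde11a, Tspan33, 9330158H04Rik and Tnfaip2 lie outside the rule for named genes and were taken after their values were seen, because they complete the list of 44.

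Of the 18 higher genes, 8 lie on chromosome 6, from Grm8 at 27275119 to the end of Olfr456 at 42487214, a stretch of 15.2 Mb that holds 119 tested genes (0.877% of all tested). The lower gene Gm13861 lies in it too, from 34651354 to 34653894. The stretch was delimited by the called genes themselves, so the count is a description. In order along the chromosome the higher genes are Grm8, Tspan33 (3.20 against 1.20 CPM), Slc13a4, 9330158H04Rik (1.73 against 0.0561 CPM), Mgam, Moxd2, Prss58 and Olfr456. For 9330158H04Rik the controls held 3 reads in all, and the ratio of pooled counts was 28.9 with a counting interval of 9.68 to 142 (95%, exact binomial). The 119 tested genes had a median log2FC of 0.13 with quartiles of -0.02 and 0.34, against a median of 0.03 over the other 585 tested genes of chromosome 6, among which 0 were called higher and 2 lower (Gxylt2 and Pianp). Other genes of the stretch missed the threshold with large differences between group means. Plxna4, a semaphorin receptor, had means of 86.3 against 20.6 CPM (log2FC 2.06, adjusted p = 0.196 by edgeR), and Cald1, an actin-binding protein, 133 against 66.0 CPM (log2FC 1.01, adjusted p = 0.101 by edgeR).

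**Figure D3:**
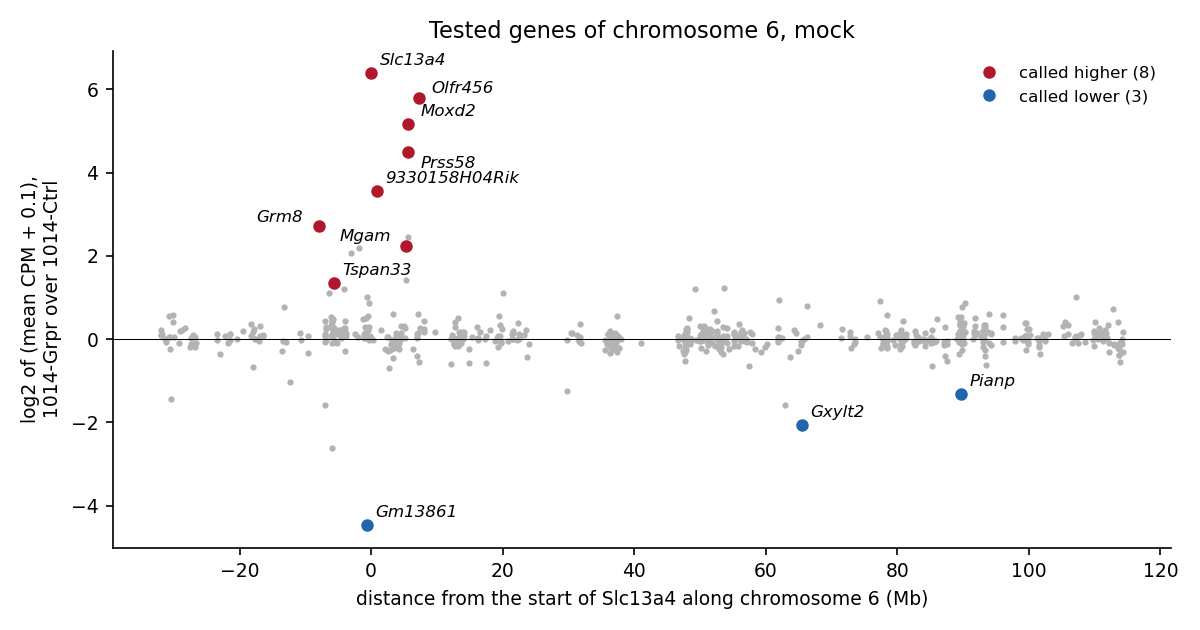
Log2 ratio of mean CPM (0.1 CPM added, 1014-Grpr over 1014-Ctrl, mock) of every tested gene of chromosome 6 against its distance in Mb from the start of Slc13a4; red points are the 8 genes called higher, blue points the 3 called lower. The red points all lie within the 15.2 Mb from Grm8 to Olfr456, among grey points most of which stay near 0.

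The promoters of 3 of these higher genes and of the lower gene in the same stretch are shown, since Slc13a4, Moxd2 and Prss58 were called in every fit that left out 1 library and Gm13861 fell the most. Each sequence is the 250 bases before the RefSeq transcription start, 5′ to 3′ on the strand of the gene (the minus strand for all 4), in build GRCm38.p6. Motifs were searched on both strands. The AP-1 site was taken as TGACTCA. The cAMP response element, or CRE, was taken as TGACGTCA. The core of the M-box, which MITF binds, was taken as CATGTG. The TATA box was taken as TATAAA, and no motif contains another. Capitals mark the matches.
Slc13a4, chr6:35308127-35308376: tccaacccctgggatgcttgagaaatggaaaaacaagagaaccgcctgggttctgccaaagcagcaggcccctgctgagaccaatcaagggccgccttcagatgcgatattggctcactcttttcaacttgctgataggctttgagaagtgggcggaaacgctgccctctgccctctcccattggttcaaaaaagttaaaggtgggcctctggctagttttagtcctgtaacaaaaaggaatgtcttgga
Moxd2, chr6:40887495-40887744: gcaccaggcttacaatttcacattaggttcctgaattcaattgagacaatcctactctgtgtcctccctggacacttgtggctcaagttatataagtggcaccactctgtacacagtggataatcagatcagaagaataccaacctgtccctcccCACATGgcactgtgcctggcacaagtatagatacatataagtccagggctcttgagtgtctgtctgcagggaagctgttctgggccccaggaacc
Prss58, chr6:40900388-40900637: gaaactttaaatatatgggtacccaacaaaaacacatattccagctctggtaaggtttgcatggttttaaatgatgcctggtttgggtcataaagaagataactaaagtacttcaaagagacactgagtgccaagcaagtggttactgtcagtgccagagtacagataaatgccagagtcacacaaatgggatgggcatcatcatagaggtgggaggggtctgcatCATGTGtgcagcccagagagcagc
Gm13861, chr6:34653916-34654165: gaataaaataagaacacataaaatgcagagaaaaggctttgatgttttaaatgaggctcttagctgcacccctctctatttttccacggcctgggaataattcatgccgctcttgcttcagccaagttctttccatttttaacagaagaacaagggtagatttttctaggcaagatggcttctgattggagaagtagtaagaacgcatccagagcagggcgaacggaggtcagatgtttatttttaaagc
The M-box core was found once in the Moxd2 window and once in the Prss58 window, and in 12.3% of all 32851 promoter windows of this length. The AP-1, CRE and TATA letters were found in none of the 4 windows, against 4.46%, 1.55% and 12.4% of all windows. A match is a description of the letters, not of binding.

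The genes that read out ligand-driven signalling were then examined at rest. Among immediate early genes 0 of 32 tested members were called, with a median log2FC of -0.01 beside 0.01 over all tested genes. Jun and Jund, the most abundant members, had means that differed by log2FC -0.08 and -0.15 (adjusted p = 0.802 and 0.743 by edgeR). Egr1, a zinc finger factor induced by ERK and calcium, had 44.5 against 85.3 CPM, a log2FC of -0.94 (adjusted p = 0.375 by edgeR), and was named after its value was seen. For Gq signalling itself 0 of 20 genes were called (median -0.06). Gna11, which encodes the alpha subunit of G11, had a log2FC of -0.02, and the beta-arrestin Arrb1 one of -0.15. ERK feedback genes (0 of 23, median -0.05), CREB and cAMP feedback genes (0 of 17, median -0.03) and YAP/TAZ targets (0 of 19, median -0.10) were not called either. The 95% interval of a single gene typically reached 0.24 to either side for ERK feedback genes and 0.31 for YAP/TAZ targets on the log2 scale. A call also needed an absolute log2FC above 1 and an adjusted p under 0.05, and larger differences missed it too. Egr2, another immediate early zinc finger factor, had 1.15 against 4.59 CPM (log2FC -2.05, adjusted p = 0.303 by edgeR), and Fjx1, listed as a YAP/TAZ target, 0.599 against 0.189 CPM (log2FC 1.65, adjusted p = 0.345 by edgeR), both named after their values were seen.

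A second view came from the genes that the ligand itself moved in 1057, a line that expresses Grpr. There 10 nM GRP for 4 h raised 673 genes (4.89%) and lowered 193 (1.40%) of 13775 tested, with the same thresholds. Of the raised genes 451 were tested at rest in 1014, where 0 were called higher and 2 lower, with a median log2FC of -0.01 and 49.0% above 0. Of the lowered genes 133 were tested, of which 0 were called either way, with a median of 0.03 and 51.1% above 0. Over all tested genes the median was 0.01 and 51.3% lay above 0. Beside the 0.133% and 0.192% of all genes called higher and lower, such small counts are no result about these genes. In the RC libraries of the same lines the raised genes had a median log2FC of 0.06 with 61.4% above 0 (448 tested) and the lowered genes one of -0.05 with 40.3% above 0 (129 tested), against 51.1% of all genes, so in RC both sets leaned the way GRP moved them in 1057, and in mock they did not. Neither these shares nor their difference between mock and RC were tested. Genes of a set can move together within a library, so the shares are a description only. The 2 genes called lower were Timp1, an inhibitor of matrix metalloproteinases, and Tnfaip2, a TNF-inducible gene. Timp1 had 4.16, 4.15 and 4.85 CPM in 1014-Grpr against 8.36 and 10.1 CPM, and Tnfaip2 10.2, 6.89 and 9.44 CPM against 21.4 and 19.1 CPM. Both passed the threshold at rest in the direction opposite to that of GRP in 1057. In the 3 1014-Grpr libraries given GRP, Tnfaip2 had 45.1 to 59.1 CPM, above the 18.9 to 20.3 CPM of 1014-Ctrl given GRP, so the order of the lines was the other way round with ligand.

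Genes of cell state were read from further lists. Besides Grpr and Timp1, the listed genes that were called were Tfap2b, 1 of 23 tested neural crest genes, and Ifi203, 1 of 39 tested interferon-stimulated genes (median 0.13). Over all 33 lists, 469 genes were tested, 3 were called higher (Grpr, Tfap2b and Ifi203) and 1 lower (Timp1), and 29 lists held no called gene, beside 18 and 26 of 13566 over all genes (0.133% and 0.192%). Among 26 matrix remodelling genes only Timp1 passed both thresholds, with a list median of -0.18. Of the invasive state genes 0 of 5 tested were called. Loxl2, a collagen-crosslinking enzyme, had 1.45, 1.80 and 1.06 CPM against 3.76 and 4.30 CPM (log2FC -1.46, adjusted p = 0.0817 by edgeR), and in RC it was called lower (log2FC -1.91, adjusted p = 0.00489 by edgeR). Its 1014-Grpr libraries lay below those of 1014-Ctrl over all 23 libraries. Tnc had a log2FC of -0.73, Ccn1 of -0.20, Axl of 0.33 and Tcf4 of 0.15, and Wnt5a was at 0 in all 5 libraries. Of the neural crest cell-like state 0 of 6 were called: Aqp1 had a log2FC of 1.18, Gfra2 of 0.11, L1cam of 0.04, Ngfr of 0.31, Slc22a17 of 0.25 and Tmem176b of 0.06.

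Of 20 tested pigment cell genes 0 were called, with a median log2FC of -0.06 and 9 above 0. In RC 1 of them was called lower, beside 0.382% of all genes tested there. Mitf, the master regulator of the lineage, had 513, 650 and 647 CPM against 523 and 656 CPM (log2FC 0.04 ± 0.14). Mlana, Dct and Tyr had log2FC of -0.14, 0.10 and 0.02, with adjusted p values of 0.640, 0.823 and 0.966 by edgeR. Pmel and Tyrp1 had log2FC of -0.33 and -0.58 (adjusted p = 0.599 and 0.698 by edgeR). Trpm1, a melanocyte cation channel named after its value was seen, had 40.8 against 94.3 CPM (log2FC -1.20, adjusted p = 0.0745 by edgeR). Cdh2, N-cadherin, had a log2FC of -0.08. Cdh1, which encodes E-cadherin, had low RNA counts in both groups, with 2.50, 2.62 and 1.24 CPM against 3.38 and 2.04 CPM (log2FC -0.33 ± 0.36). With 1014-Ctrl mock replicate 2 left out, 1014-Grpr lay below 1014-Ctrl in each pair of libraries of equal treatment and replicate number. The ranges over all treatments overlapped (0.688 to 3.15 and 1.87 to 5.12 CPM), and the paired order was not tested. The paper treats 1014 as a line that expresses E-cadherin, and protein was not measured here. Replication and mitosis genes (0 of 36 called, median 0.06), class I antigen presentation genes (0 of 12, median 0.22) and cholesterol and fatty acid synthesis genes (0 of 23, median -0.16) held no call. In that order 21 of 36, 12 of 12 and 5 of 23 genes had a log2FC above 0, beside 51.3% of all tested genes. These shares were not tested, and genes of a list can move together within a library. In the first of these lists Mki67 and Top2a had log2FC of -0.06 and 0.11. In the second, H2-D1 had 344 against 241 CPM (adjusted p = 0.160 by edgeR) and B2m 800 against 657 CPM (adjusted p = 0.354 by edgeR). Of the bombesin family beside Grpr, the ligand gene Grp and the receptor gene Brs3 were at 0 in all 5 libraries, the receptor gene Nmbr had at most 0.152 CPM, and the ligand gene Nmb had 0.926 to 1.08 CPM in 1014-Grpr and 0.704 and 1.10 CPM in 1014-Ctrl.

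Markers of other cell types were mostly at or near 0. Summed over 10 leukocyte markers the level was 3.48 to 5.27 CPM in 1014-Grpr and 3.74 and 4.11 CPM in 1014-Ctrl, with Itgam, C1qa and Tyrobp at 0 in all 5 libraries. Summed over 10 epithelial markers it was 1.41 to 2.77 and 2.15 and 3.50 CPM, with Krt5, Krt14 and Epcam at 0. The 8 endothelial markers summed to 5.6 to 22.4 and 8.15 and 10.1 CPM, almost all of it Vwf, with Emcn and Cldn5 at 0. The 10 fibroblast markers summed to 50.7 to 56.3 and 75.9 and 93.5 CPM, mostly Postn (log2FC -0.70 ± 0.11, adjusted p = 0.0481 by edgeR), a matricellular gene whose change did not pass the fold threshold, while Lum was at 0. The 5 tested fibroblast markers had a median log2FC of 0.27, with 3 of 5 above 0. Fap, a protease of activated fibroblasts, went the other way from Postn, with 0.500 against 0.113 CPM (log2FC 2.12, adjusted p = 0.207 by edgeR).

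The same pair of lines was also measured with RC, the GRPR antagonist, at 1 µM for 4 h, in 3 against 3 libraries that share none with the mock comparison. There 86 of 13334 genes were called (0.645%), 35 higher and 51 lower. Blocking on replicate number, which these libraries follow, gave 67 higher and 93 lower. All 44 genes called in mock had the same sign in RC and 42 were called there too, which is 95.5% of the mock calls and 48.8% of the RC calls. The exceptions were Timp1 (adjusted p = 0.104 by edgeR) and Tnfaip2 (log2FC -0.63, adjusted p = 0.0594 by edgeR). Slc13a4 had 20.7 to 27.3 CPM in 1014-Grpr with RC against 0.110 to 0.369 CPM, and Gm13861 0.250 to 0.638 against 8.33 to 13.7 CPM, values close to those under mock. Both comparisons are of the same 2 lines, so effects of receptor and line derivation cannot be told apart here either.

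The difference between the RC and the mock change was tested over 13992 genes, and 0 were called (0%), with 120 at an unadjusted p under 0.05, a smallest adjusted p of 1.000 by edgeR and 0 calls by DESeq2. For the 44 genes the median difference was 0.04 on the log2 scale, and the 95% interval of a gene typically reached 0.71 to either side. Changes by RC of less than that in single genes could thus not be told from 0. A call also needed an absolute difference above 1 and an adjusted p under 0.05. Among these genes, Grpr left out, the difference went down to -1.55 without a call, so larger changes could be missed too. For Grpr, Olfr456, Moxd2 and Prss58, at 0 in the controls of both treatments, the difference could not be estimated (SE of 974, 473, 31.3 and 4.99).

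**Figure D4:**
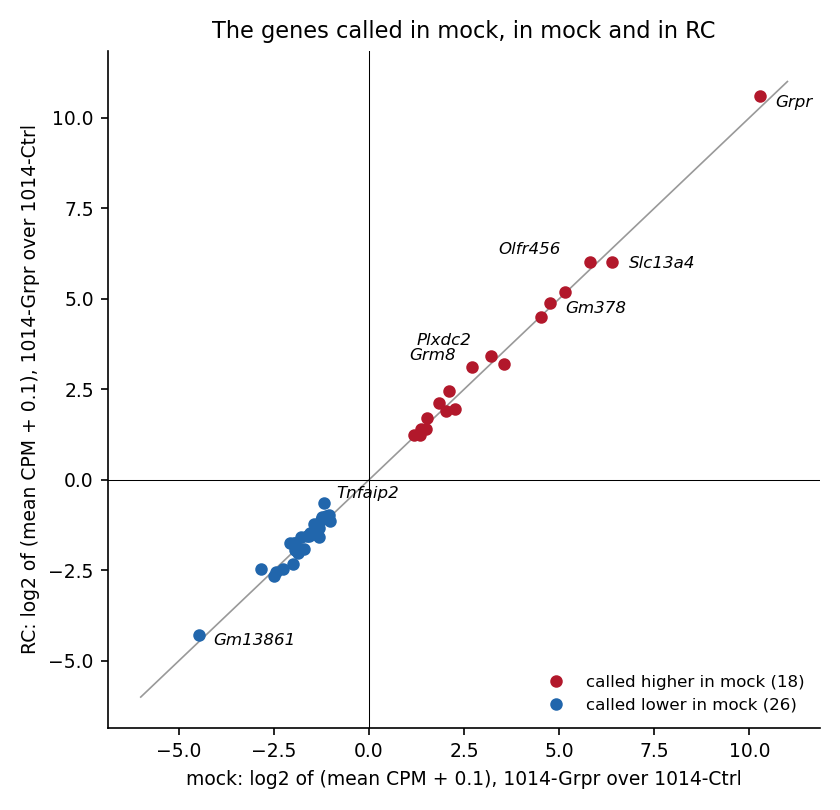
Log2 ratio of mean CPM (0.1 CPM added), 1014-Grpr over 1014-Ctrl, under mock (horizontal) and with RC (vertical) for the 44 genes called in mock; the grey line marks equal values. The 18 higher genes (red) and 26 lower genes (blue) lie close to the line, with Tnfaip2 nearest to 0 in RC.

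Across all 4 treatments (mock, RC, GRP, and GRP with RC), 12 libraries of 1014-Grpr and 11 of 1014-Ctrl could be set side by side. The 18 higher genes and 24 of the 26 lower genes had no overlap between the lines over these 23 libraries, against 3.37% of all tested genes. These libraries include the 5 from which the genes were called, and the others are of the same 2 lines. The larger share thus follows in part from the choice of genes and is a description only. The 2 genes that overlapped were again Timp1 and Tnfaip2. Moxd2 ranged from 3.04 to 4.85 CPM over the 12 1014-Grpr libraries and was at 0 in all 11 of 1014-Ctrl. Other genes kept the order but shifted with ligand: Fads3 had 20.3 to 22.4 CPM in 1014-Grpr given GRP against 7.94 to 13.4 CPM under mock, Tfap2b 10.2 to 18.2 against 3.99 to 7.59 CPM, and Kcna2 1.82 to 2.07 against 4.32 to 5.64 CPM. These shifts with GRP were not tested here.

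Beyond single genes, the genes of chromosomes 19 and 7 lay lower in 1014-Grpr as a body. The median log2FC was -0.19 over 429 tested genes of chromosome 19 and -0.12 over 1054 of chromosome 7, against medians between -0.01 and 0.05 on the other chromosomes and 0.01 over all genes. In RC the medians were -0.18 and -0.12. Within chromosome 19, all 6 windows of 10 Mb with at least 20 genes had a median below 0 (-0.21 to -0.10), as had all 14 windows of chromosome 7 (-0.17 to -0.09). The shift was noticed in the mock and RC libraries and was then read in the 6 against 6 libraries given GRP or GRP with RC, as the median log2 level of a chromosome's genes minus that of all others. For chromosome 19 the 1014-Grpr libraries lay at most at -0.06 and the 1014-Ctrl libraries at least at 0.08, and for chromosome 7 at most at -0.04 and at least at 0.05. Libraries of the same replicate number lay close together across treatments, so these are not independent of the libraries in which the shift was noticed, and the values are a description with no test. Other chromosomes differed less, with differences between the line means of at most 0.07 in size against -0.18 for chromosome 19 and -0.13 for chromosome 7. Chromosomes 3, 5 and 14 also lay fully apart by line over all 4 treatments, with 1014-Grpr higher. On chromosome 3 the 1014-Grpr libraries lay at least at 0.006 and the 1014-Ctrl libraries at most at -0.017. Of the 44 called genes 4 lie on chromosomes 19 and 7, all lower: Fads3 and Glis3 on chromosome 19 and Adgra1 and Gm2115 on chromosome 7.

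**Figure D5:**
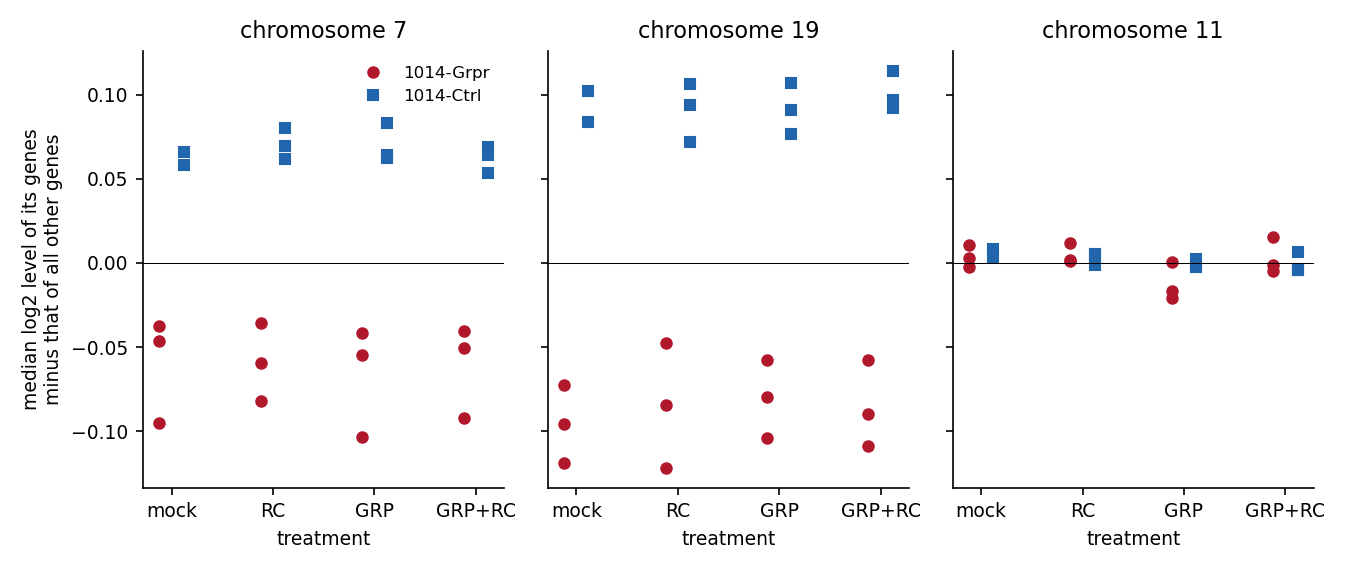
For chromosomes 7, 19 and, for contrast, 11, each point is 1 library and its height the median log2 level of that chromosome's genes minus the median of all other genes, by treatment; red circles are 1014-Grpr and blue squares 1014-Ctrl. Red lies below 0 and blue above 0 in all 4 treatments on chromosomes 7 and 19, and both lie near 0 on chromosome 11. Chromosome 11 has little difference between the lines and does not stand for all other chromosomes.

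Line 1181, a male melanoma line, was given the same vectors, and 3 mock libraries of 1181-Grpr were set against 3 of 1181-Ctrl. Here 906 of 13878 genes were called (6.53%), 775 higher and 131 lower (226 lower when blocked on replicate number). The 1181-Grpr libraries carried transcripts of both lines. Without GRP+RC replicate 2, which had no Grpr, the 11 libraries of 1181-Grpr had 193 to 248 CPM of Xist against at most 0.640 CPM in 1181-Ctrl, and genes particular to 1014-Ctrl stood in them at 30.2% to 32.1% of their 1014-Ctrl level, a share close to that in the library labelled 1014-Ctrl mock replicate 2. Of the 18 genes higher in 1014-Grpr 9 were tested in 1181, and 8 of them were called higher, among them Grpr, Mgam, Dnajc15 and Pde11a. Of the 26 lower genes 22 were tested, of which 1 (Parp8) was called lower and 12 were called higher. The filter on low counts left out genes scarce in both 1181 groups. A gene scarce in 1181-Ctrl was thus tested only if 1181-Grpr had enough counts of it. The shares called higher among tested genes follow in part from this filter and are a description only. The difference between the lines in the change was called for 857 of 14827 genes (5.78%). In 1181 a change with the receptor and the presence of 1014 transcripts cannot be told apart.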

How the data were processed

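RNA of mouse melanoma lines was sequenced with a stranded mRNA kit. Per the labels and the methods of the study, reads were aligned with STAR to GRCm38.p5 (mm10) with GENCODE genes, and the authors deposited gene-level counts, not normalized, and TPM; whether counting used strand is not given in the sources used here. The deposited counts hold 50600 genes, and 12 TPM columns were not used. Groups followed the labels. Positions came from GENCODE M21 and promoters from RefSeq GRCm38.p6. The comparisons, gene lists and members were chosen with earlier results of these data known.

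Counts were filtered (filterByExpr), TMM normalized and tested with edgeR 4.0.16 (robust quasi-likelihood, R 4.3.3), with Benjamini-Hochberg adjustment over all genes tested and calls at an adjusted p under 0.05 and an absolute log2FC above 1. CPM were scaled by TMM over all 72 libraries. DESeq2 1.42.0 and limma 3.58.1 on log2(TPM + 1) were alternatives, beside other filters, scalings, blocks and left-out libraries. Fits were tested on simulated data. Floors of 3 counts per library (at most 0.147 CPM) and counting intervals cover counting error only. RC libraries of equal replicate number deviated together (r = 0.415, 0.606 and 0.609), as did 1181 mock libraries (0.668, 0.612 and 0.282), so blocked counts stand beside these results.

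Named genes were Grpr and the 12 higher and 12 lower called protein-coding genes of largest log2FC, with a mean of at least 1 CPM in the higher group, no overlap between groups and no Gm or Rik name. From each list came up to 6 called members or, with none called, the 2 of highest CPM, with all bombesin family, invasive, neural crest cell-like and sex-linked list members, and Mitf, Mlana, Dct, Tyr, Cdh1 and Cdh2.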

Additional observations from a re-analysis of the deposited data

Results flagged for a closer look

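The change with the receptor under mock differed between lines 1014 and 1181 for 25 of the named and called genes, by an interaction term in edgeR. As the log2FC in 1014 minus that in 1181, the difference was above 0 for Erfe (3.06). It was below 0 for the higher genes Zfp709 (-6.76), Mndal (-5.98), Ifi203 (-4.97) and Pde11a (-2.95), which rose in both lines with a larger log2FC in 1181. For Zfp709 and Mndal that log2FC was 8.36 and 7.52, against 1.59 and 1.51 in 1014. A log2FC is a ratio and does not give the size of a rise in CPM. Among the lower genes the difference between the lines was -7.84 for Flt4, -4.63 for Anxa3, -2.82 for Ppp1r16b, -5.72 for Snhg11, -3.04 for Gxylt2, -3.28 for Adgra1 and -6.83 for Fads3. It was -9.57 for Gpm6a, -2.18 for Igfbp4, -7.64 for Ddx19b, -3.60 for Prrt1, -4.67 for Isyna1 and -2.92 for Tnfaip2. It was -7.24 for Pianp, -6.85 for Ugt8a, -3.56 for Kcna2, -1.23 for Glis3, -10.01 for Gm13861, -3.73 for Gm2115 and -7.23 for Pcdhgb6. The 1181-Grpr libraries held genes particular to 1014-Ctrl at 30.2% to 32.1% of their 1014-Ctrl level, and the part of this in the differences was not tested.

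The library labelled 1014-Ctrl mock replicate 2, outside the comparison, had signal that the other 1014-Ctrl libraries lack, with 48.1 CPM of Grpr, 64.2 CPM of Ddx3y, 34.1 CPM of Eif2s3y, 44.7 CPM of Kdm5d and 30.2 CPM of Uty.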

How the results depend on the processing

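For 1014 mock, the 18 higher and 26 lower genes became 37 and 51 with DESeq2, 67 and 79 with no filter on low counts, 6 and 7 with limma on log2(TPM + 1), and 56 and 68 in 1 fit of all 1014 libraries. That fit with a replicate block, an alternative added after seeing the data, gave 82 and 103. With 1014-Ctrl mock replicate 2 kept there were 1 and 0 genes, and 0 and 0 with the replicate block as well. The 1014 mock libraries form 2 pairs only (r = 0.488 and 0.408), and the replicate block gave 51 and 57. In RC, 35 higher and 51 lower became 67 and 96 with no filter, 65 and 90 at the adjusted p alone and 67 and 93 with the replicate block. In 1181, 131 lower genes became 209 with DESeq2, 326 at the adjusted p alone and 226 with the replicate block. For the difference between the lines, 90 higher genes became 149 with DESeq2, 208 at the adjusted p alone and 18 with 1014-Ctrl mock replicate 2 kept, which left 452 of 767 lower. Leaving out 1 library gave 6 to 26 higher and 8 to 29 lower genes in 1014 mock, 20 to 29 and 34 to 41 in RC, 0 for the difference between RC and mock, 547 to 953 and 43 to 294 in 1181, 35 to 215 and 601 to 936 for the difference between the lines, and 677 to 724 and 197 to 229 for GRP in 1057. Of the 44 genes 11 were called in all fits of 1014 mock without 1 library, and 0 changed sign. The causes were not tested.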
